A study of Mus musculus with 10 samples.

Results

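The transcripts described here are those of 38 genes of DNA replication and the cell cycle, measured by RNA sequencing in the livers of mice. They were taken as the rows of the gene count table that carry one of 38 symbols, and all 38 were found among the 17359 genes of the table. They fall into 21 replication genes, 12 mitotic genes and 5 regulators of the G1 phase and of entry into S phase. All mice were kept on a high-fat diet (HFD). One group was collected on day 3 of a weekly feeding cycle, the low-calorie phase (LC, 4 libraries), when intake was reduced by 70%. A second group was collected on day 7 of the same cycle, the refeeding phase (RF, 3 libraries). The controls ate the high-fat diet ad libitum throughout (AL, 3 libraries). The cycle cut intake by 50% on its days 1 and 4, by 70% on the days between them, and left days 5 to 7 unrestricted. Nothing in the labels states that each library is a separate animal, and p-values therefore speak only of the spread among libraries. The sources used here do not give strain, age, sex or the time of day at collection.

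DNA replication begins when the licensing factors Cdc6 and Cdt1 load the Mcm helicase onto origins, which the GINS complex and Mcm10 then help to activate. The clamp Pcna, placed on DNA by the Rfc clamp loader, holds the polymerases on the template, and ribonucleotide reductase and thymidylate synthase supply the building blocks. These genes are classical targets of E2F transcription factors in late G1, whereas the genes of mitosis are switched on later, through promoter elements known as CHR and CCAAT boxes. Most hepatocytes of an adult liver are out of the cell cycle, and they enter it in large numbers mainly after tissue loss or injury.

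Library totals lay between 13871533 and 15899479 expected counts. Members were scarce at this depth. The mean over the 10 libraries was under 50 expected counts for 25 of the 38, among them all 12 mitotic genes and 10 of the 21 replication genes, and these are called low-count below. Of the 380 values of members in single libraries 5 were 0, and a count of 0 allows up to 3 counts. The filter on low counts left out 5 members, so 33 were tested, namely 19 replication genes, 9 mitotic genes and all 5 G1 regulators. The labelled tissue was borne out by its markers, since all 12 hepatocyte markers were tested and albumin averaged 36726 CPM in LC, 50341 CPM in RF and 58883 CPM in AL livers. CPM here are counts scaled to a common library total after TMM scaling, which lines libraries up on the bulk of their genes.

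Ranked by length-scaled level (FPKM, the authors' unit), Mcm10 stood at the top with a mean of 34.4 FPKM over the 10 libraries and a range of 24.3 to 47.7. Pcna followed at 22.6 FPKM and Rfc3, a subunit of the clamp loader, at 6.21 FPKM. The highest mitotic gene was Birc5, which encodes survivin, at 1.33 FPKM, and the lowest member was the spindle checkpoint kinase Bub1 at 0.039 FPKM. The level of Mcm10 made up 52.0 to 60.1% of the summed replication CPM in LC, 47.4 to 54.4% in RF and 40.5 to 55.9% in AL libraries, and sums are therefore given without it. No gene of the GENCODE M21 annotation overlapped Mcm10, and the source of its high count was not tested. Because the libraries did not keep strand, reads of 7 members cannot be told apart from those of a table gene on the opposite strand where their exons overlap: Ccna2, Ccnd1, Ccne2, Cdc20, Gins2, Mcm7 and Rfc4. Processed pseudogenes of Pcna, Tyms, Ccnb1 and Ccnb2 are also annotated, so their counts are less certain than those of genes without such copies.

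LC was set against AL to see how these transcripts stood on day 3 of the cycle. At LC 16 members fell and none rose: 10 of 19 tested replication genes, 3 of 9 mitotic genes and 3 of 5 G1 regulators. Among the genes that fell were the helicase subunits Mcm2, Mcm3, Mcm4 and Mcm6, the clamp Pcna, both subunits of ribonucleotide reductase, the proliferation marker Mki67 and the cell cycle inhibitor Cdkn1a. Median log2 fold changes were −0.63 for replication genes, −0.77 for mitotic genes and −0.67 for G1 regulators, against 0.05 for all genes tested. Calls rest on edgeR's quasi-likelihood test with a Benjamini-Hochberg adjusted p under 0.05. By that test 15.6% of all 12789 genes tested were lower at LC and 16% were higher. DESeq2 called 18 members lower and none higher, and 1 member was higher at an unadjusted p under 0.05 in edgeR. With libraries scaled by their totals alone, which moved the median of all genes to 0.36, 7 members fell and 4 rose (Mcm7, Mcm10, Pold1 and Tyms). The shares of all genes called under that scaling are not given here, so these counts do not set the members apart. In bulk liver a smaller number of cycling cells and less RNA per cell cannot be told apart.

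One control library carried much of the count. Without AL replicate 4, which had the highest value of the AL libraries for 11 of 19 replication and 5 of 9 mitotic genes, 4 members fell at LC (Mcm2, Pcna, Uhrf1 and Cdkn1a), 3 of them replication genes and 0 mitotic. Without LC replicate 2, 3 or 4 the count of members lower was 10, 10 and 9, and without LC replicate 2 Mcm7 rose. Over all genes, fits with a library left out called 2110 to 4353 at LC against AL, against 4034 with all 10 libraries. Whether the loss without AL replicate 4 was particular to the members was not tested.

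Pcna (NCBI gene 18538), the sliding clamp, had 16.9, 13.8, 19.8 and 15.1 CPM in the LC libraries, 24.8, 27.5 and 26.6 CPM in the RF libraries and 23.4, 32.9 and 31.4 CPM in the AL libraries. All 4 LC values lay below all 6 others, while RF and AL overlapped. The log2 fold change at LC against AL was −0.83 (SE 0.15, adjusted p = 0.00175). Mcm2 (17216), a subunit of the replicative helicase, had 1.26, 0.80, 2.10 and 0.816 CPM in LC, 2.56, 3.93 and 2.41 CPM in RF and 3.11, 3.59 and 3.31 CPM in AL libraries. The LC group again lay wholly below the other groups, with LC replicate 3 nearest to them. Its log2 fold change was −1.40 (SE 0.33, adjusted p = 0.00649). Mcm3 (17215), another helicase subunit, had 2.64, 1.66, 2.48 and 1.95 CPM in LC, 4.12, 6.06 and 5.35 CPM in RF and 3.63, 3.82 and 5.66 CPM in AL libraries. Its LC libraries overlapped neither other group, and AL replicate 4 stood above the other AL libraries. Mcm3 fell by 1.002 on the log2 scale (SE 0.25, adjusted p = 0.00902), and 4 of the 19 alternatives ended the call, with adjusted p values up to 0.0629. Mcm4 (17217), also of the helicase, had 2.14, 1.05, 2.42 and 1.32 CPM in LC, 3.06, 3.40 and 3.28 CPM in RF and 3.26, 3.36 and 4.76 CPM in AL libraries. LC did not overlap RF or AL, and the log2 fold change was −1.12 (SE 0.29, adjusted p = 0.0103).

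Rrm2 (20135), the regulatory subunit of ribonucleotide reductase, had 2.32, 1.85, 1.56 and 2.07 CPM in LC, 2.70, 5.39 and 5.69 CPM in RF and 3.11, 4.60 and 5.72 CPM in AL libraries. LC was the lowest group without overlap, and RF replicate 1 was the RF library nearest to it. Rrm2 had a log2 fold change at LC against AL of −1.20 (SE 0.29, adjusted p = 0.00828), and the call was lost without AL replicate 4 (adjusted p = 0.0505). Uhrf1 (18140), which recruits the maintenance DNA methyltransferase to replicated DNA, had 0.126, 0.123, 0.485 and 0.377 CPM in LC, 0.569, 1.46 and 1.07 CPM in RF and 1.26, 0.780 and 1.38 CPM in AL libraries. These LC values stand for 2 to 9 expected counts, and all lay below the RF and AL values. Uhrf1 fell by 1.99 on the log2 scale (SE 0.50, adjusted p = 0.00985). The other replication genes that fell were Mcm6 (−0.74), Rfc4 (−0.85), Gins1 of the GINS complex (−0.63) and Rrm1, the large subunit of ribonucleotide reductase (−0.49). Their calls were the least stable, with Gins1 and Rrm1 lost in 15 of 19 alternatives, Rfc4 in 12 and Mcm6 in 9. Mcm2 and Pcna were called in all 19. Uhrf1 was called in the 18 that tested it, but it passed the filter on low counts only through AL and RF, where it is high. Its record is therefore no sign of stability.

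Another 9 tested replication genes did not pass at LC against AL. Their log2 fold changes were −1.06 for Mcm5 (adjusted p = 0.0594), −0.63 for Pola1, the catalytic subunit of polymerase alpha (0.0554), −0.09 for Pole, the catalytic subunit of polymerase epsilon, 0.05 for Rfc3, 0.16 for Mcm10, 0.18 for Tyms (thymidylate synthase), 0.22 for Cdt1, 0.37 for Mcm7 and 0.50 for Pold1, the catalytic subunit of polymerase delta. Within the helicase, Mcm7 thus had a positive fold change while the other 5 subunits had negative ones between −1.40 and −0.74. Mcm7 had 6.96 to 14.3 CPM in LC and 8.07 to 8.75 CPM in AL libraries, so the AL range lay inside the LC range. Its exons overlap those of Ap4m1, which rose by 0.53 on the log2 scale, and Cops6, which fell by 0.87. Pold1 had 6.28, 5.17, 7.43 and 6.15 CPM in LC, 3.13, 5.39 and 3.95 CPM in RF and 4.67, 3.59 and 5.03 CPM in AL libraries. It was the single tested member whose LC values all lay above the AL values, and its adjusted p was 0.108. In the other direction 13 tested members lay wholly below AL, of them 10 replication, 2 mitotic and 1 G1 regulator. Over all genes tested 17.1% lay wholly below and 18.7% wholly above.

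**Figure D1:**
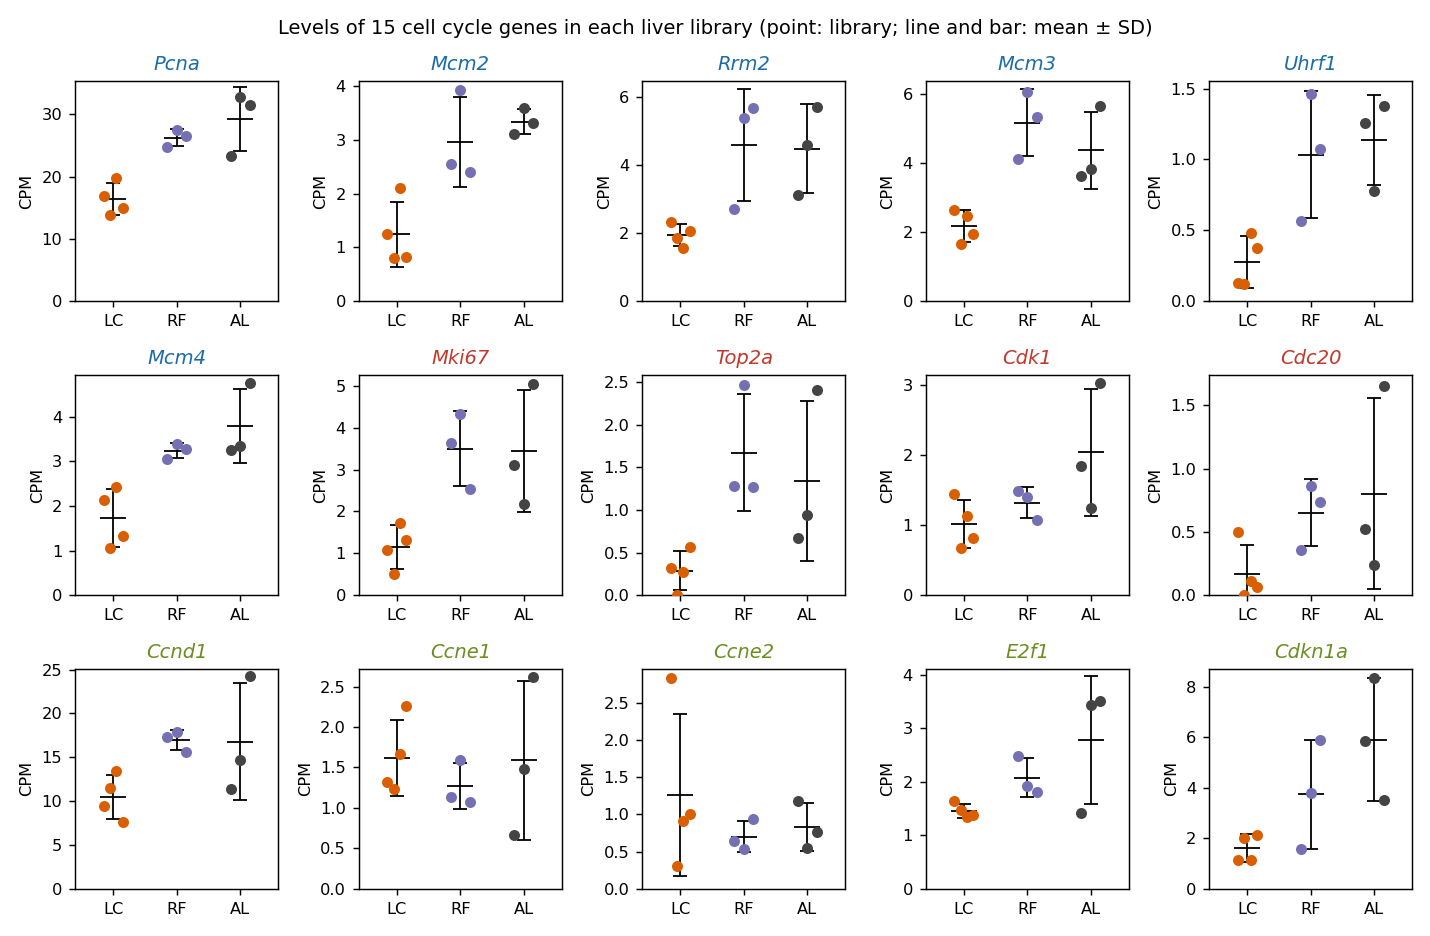
Levels in CPM (y axis, linear from 0, own scale per panel) of 15 members, in LC (orange, 4 libraries), RF (purple, 3) and AL (black, 3) livers; points are libraries, the line and bar are mean ± SD. Titles are blue for replication, red for mitotic and green for G1 genes. Pcna lay at 13.8 to 19.8 CPM in LC and at 23.4 CPM or above in every RF and AL library, whereas the Cdk1, Ccne1 and Ccne2 groups overlapped.

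Among mitotic genes, Mki67 (17345), which encodes a protein that coats mitotic chromosomes and marks cycling cells, had 1.07, 0.492, 1.72 and 1.32 CPM in LC, 3.63, 4.33 and 2.54 CPM in RF and 3.11, 2.18 and 5.03 CPM in AL libraries. LC lay below both other groups without overlap. The log2 fold change at LC against AL was −1.57 (SE 0.38, adjusted p = 0.00734), and the call was lost without AL replicate 4, with adjusted p values up to 0.0763 over the alternatives. Top2a (21973), the topoisomerase that untangles sister chromatids, had 0.314, 0, 0.269 and 0.565 CPM in LC, 1.28, 2.46 and 1.27 CPM in RF and 0.667, 0.936 and 2.41 CPM in AL libraries. These are 5, 0, 5 and 9 expected counts in LC, 18, 37 and 19 in RF and 9, 12 and 35 in AL. In CPM the LC group did not overlap the others, although LC replicate 4 and AL replicate 2 both held 9 counts. Top2a fell by 2.21 on the log2 scale (SE 0.65, adjusted p = 0.021), and 4 of the 18 alternatives that tested it ended the call, among them those without AL replicate 4 and without LC replicate 3. Cdk1 (12534), the kinase that drives entry into mitosis, had 1.44, 0.677, 1.13 and 0.816 CPM in LC, 1.49, 1.40 and 1.07 CPM in RF and 1.85, 1.25 and 3.03 CPM in AL libraries. The groups overlapped, and AL replicate 4 was far above the rest. Cdk1 fell by 1.01 on the log2 scale (SE 0.36, adjusted p = 0.0454), a call lost in 13 of 19 alternatives. Cdc20 (107995), the activator of the anaphase-promoting complex, had 8, 0, 2 and 1 expected counts in LC, 5, 13 and 11 in RF and 7, 3 and 24 in AL libraries, with LC and AL overlapping, and it did not pass (adjusted p = 0.0547).

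The remaining tested mitotic genes did not pass at LC against AL. Log2 fold changes were −0.77 for Birc5, −0.67 for the spindle kinase Aurka, −0.13 for cyclin B2 (Ccnb2), 0.19 for cyclin A2 (Ccna2) and 0.24 for the kinase Plk1, each from a mean under 50 expected counts. At such depth few genes passed: of all 2543 tested genes with a mean under 50 counts 4.13% were called lower at LC, against 18.4% of the 10246 more abundant genes. Within the low-count range 4 of 8 replication genes and 3 of 9 mitotic genes were called lower, with median log2 fold changes of −0.96 and −0.77. Mean counts in that range were 11.2 to 43.4 for the replication genes and 7.4 to 37.5 for the mitotic genes. The range therefore does not match the classes for depth. The 11 replication genes of higher count had 6 lower and a median of −0.49. No difference between the classes was tested.

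**Figure D2:**
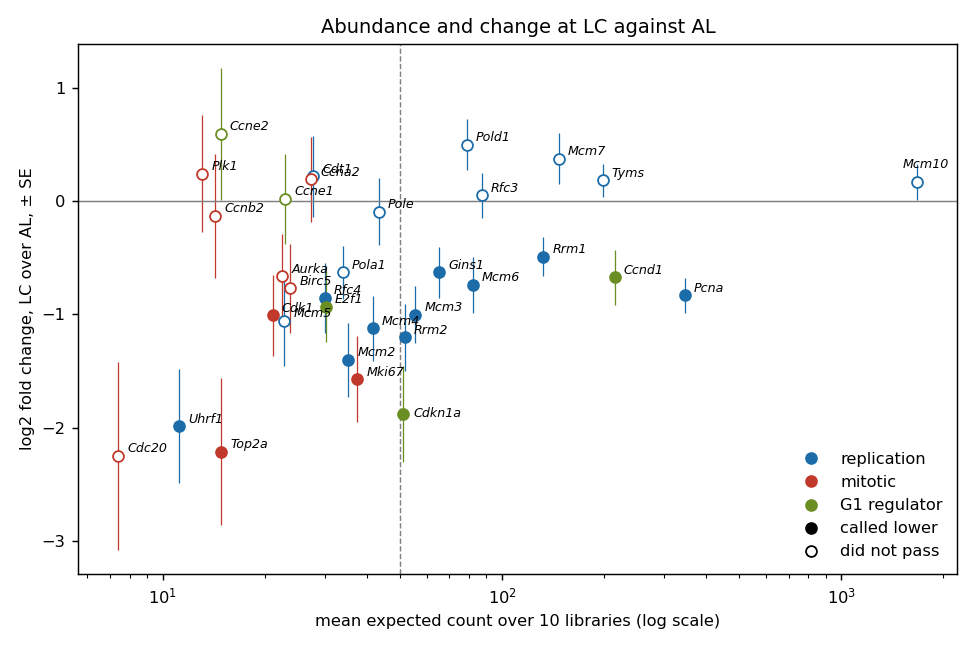
Log2 fold change at LC over AL with its SE (y axis) against the mean expected count over the 10 libraries (x axis, log scale) for the 33 tested members; filled points were called lower and the dashed line is the low-count limit of 50. All mitotic genes lie left of that line, Mcm10 stands alone on the right, and the most negative values, of Cdc20, Top2a and Uhrf1, lie among the lowest counts.

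Of the G1 regulators, Cdkn1a (12575), the p53-inducible inhibitor of cyclin-dependent kinases, had 1.13, 2.03, 1.13 and 2.13 CPM in LC, 1.56, 3.79 and 5.89 CPM in RF and 5.86, 8.35 and 3.52 CPM in AL libraries. All LC values lay below all AL values. RF replicate 1 lay within the LC range and the other RF libraries within the AL range. Its log2 fold change at LC against AL was −1.87 (SE 0.42, adjusted p = 0.00634) and was called in all 19 alternatives. E2f1 (13555), the transcription factor that activates replication genes, had 1.63, 1.48, 1.35 and 1.38 CPM in LC, 2.49, 1.93 and 1.81 CPM in RF and 1.41, 3.43 and 3.52 CPM in AL libraries. AL replicate 2 fell within the LC range while the other AL libraries were the highest of the 10. The log2 fold change was −0.93 (SE 0.31, adjusted p = 0.0352), and 9 alternatives ended the call. Ccnd1 (12443), cyclin D1, which links growth signals to the start of the cycle, had 9.48, 11.5, 13.4 and 7.66 CPM in LC, 17.3, 17.9 and 15.7 CPM in RF and 11.4, 14.7 and 24.3 CPM in AL libraries. LC and AL overlapped. Its log2 fold change was −0.67 (SE 0.24, adjusted p = 0.0466), and 13 alternatives ended the call. Only 1 G1 regulator was called lower once AL replicate 3, AL replicate 4, LC replicate 1, LC replicate 2 or LC replicate 4 was left out.

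The cyclins that activate the S phase kinase did not pass. Ccne1 (12447), cyclin E1, had 1.32, 1.23, 1.67 and 2.26 CPM in LC, 1.14, 1.60 and 1.07 CPM in RF and 0.667, 1.48 and 2.62 CPM in AL libraries. The AL libraries spanned the whole range of the other groups, and the log2 fold change was 0.02 (SE 0.40). Ccne2 (12448), cyclin E2, had 2.83, 0.308, 0.915 and 1.00 CPM in LC, 0.640, 0.533 and 0.937 CPM in RF and 1.19, 0.546 and 0.759 CPM in AL libraries. LC replicates 1 and 2 were the highest and the lowest of all libraries, and the log2 fold change was 0.59 (SE 0.58).

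For the 5 members below the filter the values are expected counts. Ccnb1, cyclin B1, had 0, 0, 1 and 0 in the LC libraries, 4, 6 and 4 in the RF libraries and 8, 4 and 11 in the AL libraries, so a single read stood for the LC group. Gins2 of the GINS complex had 2, 3, 2 and 5 in LC, 4, 8 and 9 in RF and 8, 11 and 16 in AL libraries. With 67.3% of its exon bases overlapping Gse1, which rose at LC by 1.03 on the log2 scale, Gins2 is uncertain. The licensing factor Cdc6 had 2, 6, 7 and 4 in LC, 4, 8 and 4 in RF and 7, 9 and 7 in AL libraries. LC and AL met at 7 counts. The chromosomal passenger kinase Aurkb had 2, 1, 4 and 3 in LC, 5, 9 and 8 in RF and 4, 5 and 7 in AL libraries. LC and AL met at 4. In CPM the LC values of both Cdc6 and Aurkb lay wholly below the AL values, at very few counts. Bub1 had 1, 2, 1 and 1 in LC, 3, 2 and 1 in RF and 4, 3 and 5 in AL libraries. Without the filter on low counts, edgeR called Ccnb1 (adjusted p = 0.000882) and Gins2 (adjusted p = 0.00542) lower at LC against AL and Ccnb1 (adjusted p = 0.00923) higher at RF against LC. Both were called lower at LC in every alternative that tested them, 3 for Ccnb1 and 7 for Gins2. With a library left out, however, Gins2 passed the filter only through AL, where it is high. On the FPKM scales Ccnb1 and Aurkb passed the filter only through RF and AL. Those calls are therefore no sign of stability. Aurkb, Bub1 and Cdc6 were not called at LC against AL in the alternatives that tested them, and Aurkb was called higher at RF against LC in 2 of 3.

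RF was set against LC to compare day 7 with day 3 of the cycle. At RF 9 members rose and none fell: the replication genes Mcm2, Mcm3, Mcm4, Mcm5, Pcna, Rrm2 and Uhrf1, and the mitotic genes Mki67 and Top2a. By the same test 11.4% of all genes tested were higher and 10.7% lower at RF. Median log2 fold changes were 0.43 for replication genes, 0.66 for mitotic genes and 0.51 for G1 regulators, against −0.02 for all genes. DESeq2 called 12 members higher and none lower, and 1 member was lower at an unadjusted p under 0.05 in edgeR. Scaling by library totals alone moved the median of all genes to −0.22, and 1 member (Pold1) then fell. The share of all genes lower under that scaling is not given here. Among low-count genes, 3.5% of all those tested were higher at RF, against 4 of 8 replication and 2 of 9 mitotic members.

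In the library values given above, all 3 RF libraries exceeded all 4 LC libraries for each of the named genes that rose. Mcm3 rose by 1.24 on the log2 scale (SE 0.25, adjusted p = 0.00433) and Pcna by 0.68 (SE 0.15, adjusted p = 0.00787), and these were the pair called in all 19 alternatives. Top2a rose by 2.52 (SE 0.63, adjusted p = 0.0141), Uhrf1 by 1.85 (SE 0.51, adjusted p = 0.0198) and Mki67 by 1.59 (SE 0.38, adjusted p = 0.0102). Rrm2 rose by 1.24 (adjusted p = 0.0102), Mcm2 by 1.23 (adjusted p = 0.018) and Mcm4 by 0.90 (adjusted p = 0.04), a call lost in 10 of 19 alternatives. Mcm5 (17218), a helicase subunit that did not pass at LC against AL, had 0.440, 0.923, 0.808 and 1.07 CPM in LC, 1.71, 2.93 and 2.41 CPM in RF and 1.11, 1.17 and 2.76 CPM in AL libraries. Its RF values lay above all LC values, and it rose by 1.53 (SE 0.39, adjusted p = 0.0142). Of the tested members 14 lay wholly above LC at RF, of them 10 replication genes, 2 mitotic genes and 2 G1 regulators, and 17.7% of all genes tested did so.

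Cdkn1a (1.23, adjusted p = 0.0603), Ccnd1 (0.69, 0.0557) and Gins1 (0.64, 0.0569) had positive log2 fold changes at RF against LC that did not pass, and Cdk1 stood at 0.37. The log2 fold change of Pold1 was −0.59 (adjusted p = 0.0761). Without RF replicate 2, the RF library with the highest value for 12 of 19 replication and 7 of 9 mitotic genes, 4 members rose at RF (Mcm3, Pcna, Rrm2 and Mki67) and Pold1 fell. Without RF replicate 3 the count of replication genes that rose was 4. Over all genes, fits with a library left out called 1435 to 3141 at RF against LC, against 2821 with all libraries.

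Of the 16 members lower at LC against AL and the 9 higher at RF against LC, 8 were in both sets, that is 50% of the first and 88.9% of the second. Both comparisons use the same LC libraries, so this overlap is given as a description.

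RF was set against AL to see how far day 7 stood from unrestricted feeding. No member was called in either direction by edgeR's quasi-likelihood test. DESeq2 called none, and none had an unadjusted p under 0.05 in edgeR, against 1381 of all genes tested. Of all genes 7 passed, which is 0.0547%. No tested member had RF values wholly above or below the AL values, against 9.38% and 9.56% of all genes. Median log2 fold changes at RF against AL were −0.04 for replication genes, 0.05 for mitotic genes and −0.33 for G1 regulators. The SEs show how wide these estimates are: Top2a stood at 0.31 (SE 0.58), Cdkn1a at −0.65 (SE 0.43), Cdk1 at −0.64 (SE 0.38) and Mcm5 at 0.47 (SE 0.40), whereas Pcna stood at −0.15 (SE 0.16). With so few libraries a difference of the size of these SEs was not detectable.

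**Figure D3:**
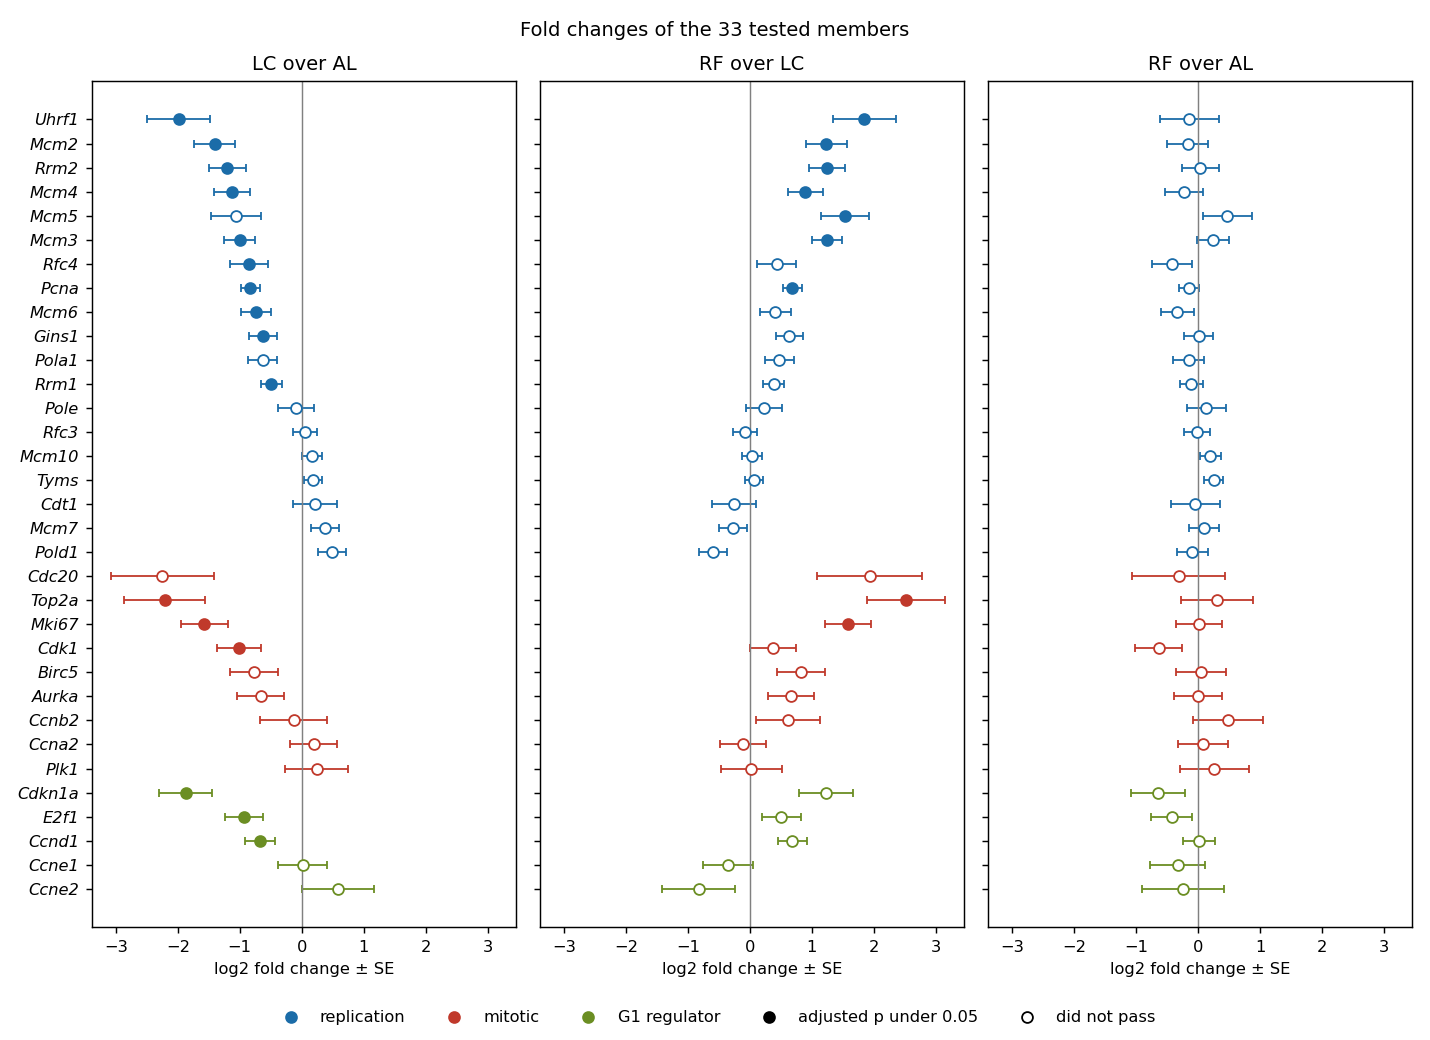
Log2 fold changes with SE (x axis) of the 33 tested members in the 3 comparisons LC over AL, RF over LC and RF over AL, with replication genes in blue, mitotic genes in red and G1 regulators in green, sorted within class by the first comparison. Filled points passed at an adjusted p under 0.05: 16 in the first panel, all negative, 9 in the second, all positive, and none in the third.

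Summed over members, the 20 replication genes other than Mcm10 reached 84.2 ± 7.14 CPM in LC (SD, n = 4), 109 ± 7.67 CPM in RF (n = 3) and 112 ± 16.7 CPM in AL libraries (n = 3). The LC libraries, at 74.2 to 89.7 CPM, lay below all RF and AL libraries, which began at 95.4 CPM. With Mcm10 included the groups overlapped, since all 21 replication genes summed to 179 to 225 CPM in LC, 204 to 248 CPM in RF and 207 to 217 CPM in AL libraries, and LC replicate 1 stood above every AL library. The 12 mitotic genes together held 8.68 ± 2.01 CPM in LC, 15.7 ± 2.96 CPM in RF and 15.8 ± 5.77 CPM in AL libraries. The mitotic sum of AL replicate 3, at 9.91 CPM, fell within the LC range of 6.34 to 10.7 CPM, while AL replicate 4 held 21.4 CPM. The G1 regulators summed to 14.4 to 18.5 CPM in LC, 23.1 to 25.8 CPM in RF and 20.5 to 34.7 CPM in AL libraries, without overlap between LC and the others. The ratio of the replication sum to the mitotic sum was taken without Mcm10. It was 8.36 to 11.7 in LC, 6.19 to 8.21 in RF and 5.93 to 11.3 in AL libraries. RF lay wholly below LC in this ratio, and AL overlapped LC through AL replicate 3. These sums and ratios were not tested.

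**Figure D4:**
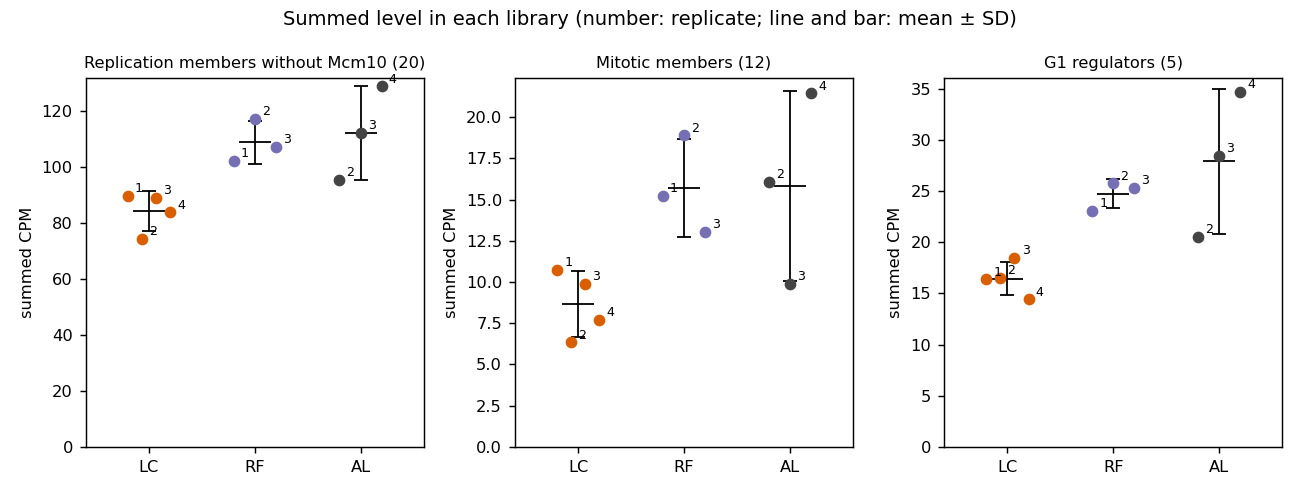
Summed CPM (y axis, from 0) of 20 replication genes without Mcm10, 12 mitotic genes and 5 G1 regulators in each LC, RF and AL library; numbers beside points are replicates, lines and bars are mean ± SD. With Mcm10 left out the LC libraries are lowest in the replication panel, at 74.2 to 89.7 CPM, whereas the sums of all 21 replication genes overlapped; they are also lowest in the G1 panel, and in the mitotic panel AL replicate 3, at 9.91 CPM, sits among them.

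Of 43 other replication genes tested, 6 fell and 5 rose at LC against AL, and the median log2 fold change was −0.09. Of all genes tested 15.6% were lower and 16% higher. With library totals alone, which moved the median of all genes to 0.36, 1 fell and 12 rose. The shares of all genes called under that scaling are not given here. Gins4 of the GINS complex fell by 0.86 on the log2 scale (adjusted p = 0.00241), while the nuclease and helicase Dna2 rose by 1.17 (adjusted p = 0.00285). The others that rose were the helicase family member Mcm9 (0.99), the polymerase subunits Pola2 (0.80) and Pold3 (0.70) and the maintenance methyltransferase Dnmt1 (0.62). Dnmt1 averaged 13.5 ± 2.80 CPM in LC and 8.75 ± 1.11 CPM in AL libraries, opposite to its partner Uhrf1. At RF against LC 1 of the 43 rose and 5 fell, against 11.4% and 10.7% of all genes tested.

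Of 34 other mitotic genes tested, 9 fell and 3 rose at LC against AL, and the median log2 fold change was −0.44. The shares of all genes tested were 15.6% lower and 16% higher. With library totals alone 4 fell and 4 rose, and the shares of all genes under that scaling are not given here. The kinetochore subunit Spc24 averaged 10.4 ± 0.801 CPM in LC, 29.9 ± 6.71 CPM in RF and 31.9 ± 8.67 CPM in AL libraries. It fell by 1.62 at LC against AL (adjusted p = 0.000207) and rose by 1.52 at RF against LC (adjusted p = 0.000451). Racgap1, which acts in cytokinesis, fell by 2.46 at LC (adjusted p = 0.00765) and held at most 17 expected counts in a library. The genes that rose at LC were the condensin subunit Smc4 (0.65, adjusted p = 0.00588), the transcription factor Mybl2 (1.47, adjusted p = 0.00735) and the cytokinesis kinase Cit (1.67, adjusted p = 0.0137). At RF against LC 7 of the 34 rose and 2 fell, against 11.4% and 10.7% of all genes tested.

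Of 32 other G1 regulators tested, 4 rose at LC in edgeR and none fell, while 6 were higher and 2 lower at an unadjusted p under 0.05 and DESeq2 called 4 higher and none lower. In edgeR 16% of all genes tested were higher and 15.6% lower at LC. Among the 4 that rose were the S phase kinase Cdk2 (0.59, adjusted p = 0.00798), the p53 ligase Mdm2 (0.51, adjusted p = 0.0225) and the repressor E2f7 (1.77, adjusted p = 0.0381). With library totals alone 9 of this list rose. Cdkn1a is a target of p53, and of 14 other p53 targets tested 4 fell and 1 rose at LC. Ccng1, cyclin G1, fell by 0.92 (adjusted p = 0.000573) and the pro-apoptotic gene Bbc3 by 0.90 (adjusted p = 0.00988), while Mdm2, which also belongs to this list, rose. With library totals alone 1 of the p53 targets fell and 3 rose. The shares of all genes under that scaling are not given for either list. At RF against AL edgeR called no gene of these 4 lists, in which 1 to 4 genes each had an unadjusted p under 0.05.

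**Figure D5:**
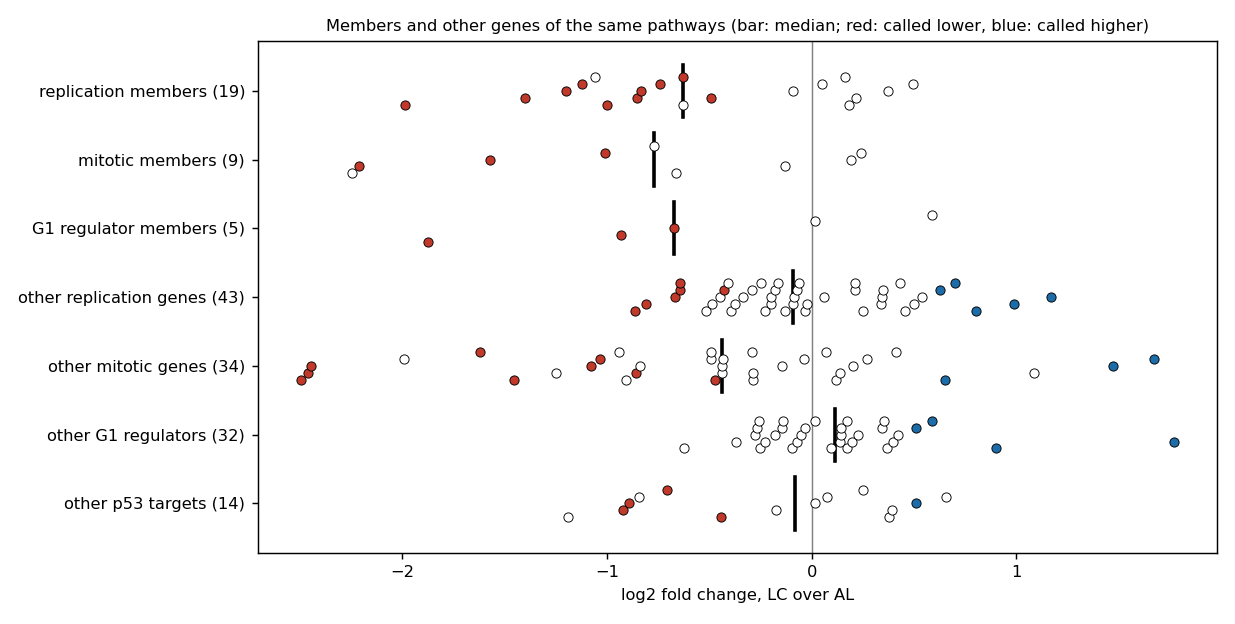
Log2 fold change at LC over AL (x axis) of every tested gene in the 3 classes of members and in 4 lists of further genes of the same pathways; each point is a gene, red was called lower, blue called higher, white did not pass, and the bar is the median. The members hold no blue point, while the other replication genes hold 6 red and 5 blue. Both were chosen with earlier results of these data known, so this contrast is a description.

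Some markers of liver cell types also differed between groups. As a measure, 15.6% of all genes tested were lower and 16% higher at LC against AL. At RF against LC the shares were 11.4% higher and 10.7% lower. Lists with 1 or 2 calls are not set apart from these shares. At LC against AL 10 of 12 hepatocyte markers fell, and their summed level was 65033 to 78228 CPM in LC, 92875 to 99587 CPM in RF and 100151 to 120734 CPM in AL libraries. Of 12 sinusoidal endothelial markers 5 rose, with sums of 405 to 422 CPM in LC, 356 to 420 CPM in RF and 280 to 296 CPM in AL libraries. In the list of 13 Kupffer cell and macrophage markers Lyz2, Mpeg1 and C1qb fell, with sums of 139 to 248 CPM in LC, 188 to 267 CPM in RF and 174 to 262 CPM in AL libraries. Of 6 tested erythroid markers 2 fell (Alas2 and Hba-a2), with sums of 277 to 411 CPM in LC, 329 to 1032 CPM in RF and 477 to 719 CPM in AL libraries. RF replicate 2 had the highest values of many members among the RF libraries. It also had the highest erythroid, Kupffer cell and macrophage, stellate cell and cholangiocyte sums of all libraries. Its hepatocyte and T and NK cell sums were the lowest of the RF libraries. Among 4 tested T and NK cell markers Cd4 fell, and the list summed to 3.63 to 5.52 CPM in LC, 4.93 to 6.96 CPM in RF and 4.41 to 7.27 CPM in AL libraries. Of the stellate cell markers 1 of 10 rose and 1 fell, of the cholangiocyte markers 1 of 5 rose, and the 6 B cell and 2 neutrophil markers did not pass, with 2 of these 8 at an unadjusted p under 0.05. The neutrophil markers Ly6g, Camp and Mpo had at most 1 expected count in any library. With library totals alone 3 hepatocyte markers and 1 erythroid marker fell, 6 endothelial and 3 stellate cell markers rose, 2 B and plasma cell markers rose, and 2 Kupffer cell and macrophage markers fell while 2 rose. At RF against LC, 7 of 12 hepatocyte and 6 of 10 stellate cell markers rose and none of either list fell, with stellate sums of 168 to 220 CPM in LC, 269 to 311 CPM in RF and 210 to 225 CPM in AL libraries. By edgeR, with library totals alone, 3 of each list rose at RF and none fell. With TMM scaling none of either list was lower at an unadjusted p under 0.05 in edgeR. No shares of all genes under library totals stand beside these marker counts. Of the other lists at RF against LC, 2 endothelial markers rose and 2 fell, 2 Kupffer cell and macrophage markers rose, and 1 erythroid and 1 T and NK cell marker rose. The part of these cell types in the changes of the members was not tested.

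The promoters of the members were compared in RefSeq windows on GRCm38.p6, each 300 bases long, from 250 bases before to 50 bases after the annotated start, taking the first start listed for a gene. A window was found for 30 of the 38 members. E2F elements were searched with the letters TTCCCGC, with TTGGCGC, with TTCGCGC and with TTGCCGC, CHR elements with TTTGAA and with TTTAAA, and NF-Y elements with CCAAT, on both strands and with overlapping matches counted. An E2F match was present in 13 of 17 replication promoters (76.5%), 3 of 10 mitotic promoters (30%) and none of 3 G1 regulator promoters, against 9.69% of the windows of 27025 genes. A CHR match was present in 3 of 17 replication promoters (17.6%) and 9 of 10 mitotic promoters (90%), against 27.8% of all windows. CCAAT was present in 12 of 17 replication promoters (70.6%) and 9 of 10 mitotic promoters (90%), against 37.9% of all windows. Within the replication class, 6 of 8 promoters of genes lower at LC and 6 of 8 of genes not called had an E2F match. Mcm5 (adjusted p = 0.0594 in edgeR) and Pola1 (0.0554) had a match and count as not called. In both, all LC values lay below all AL values. A link between matches and calls was not tested. A match is a description of letters in these windows and not a site shown to be bound.

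The windows below are those of the members with the smallest p at LC against AL in each class, and of Mcm6, which was added after the matches were seen because it held 5 E2F matches. They are printed 5′ to 3′ on the strand of the gene, with E2F, CHR and NF-Y matches in capitals. Pcna lies at chr2:132253131-132253430, Mcm2 at chr6:88898731-88899030, Mcm6 at chr1:128359656-128359955, Mki67 at chr7:135716330-135716629 and Top2a at chr11:99024140-99024439, all on the minus strand, and Cdkn1a at chr17:29090729-29091028 on the plus strand.
Pcna: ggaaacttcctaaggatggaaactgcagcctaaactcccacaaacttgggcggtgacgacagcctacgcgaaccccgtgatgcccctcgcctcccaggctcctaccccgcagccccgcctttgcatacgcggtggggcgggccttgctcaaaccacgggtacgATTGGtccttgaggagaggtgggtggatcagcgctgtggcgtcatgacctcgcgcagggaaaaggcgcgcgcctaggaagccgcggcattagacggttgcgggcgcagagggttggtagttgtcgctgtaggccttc
Mcm2: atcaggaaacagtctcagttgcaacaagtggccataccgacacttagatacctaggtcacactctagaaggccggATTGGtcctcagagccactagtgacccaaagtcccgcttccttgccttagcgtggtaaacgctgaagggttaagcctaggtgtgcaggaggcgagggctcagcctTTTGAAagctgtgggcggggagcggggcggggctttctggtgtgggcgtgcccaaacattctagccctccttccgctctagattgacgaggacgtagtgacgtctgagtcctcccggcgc
Mcm6: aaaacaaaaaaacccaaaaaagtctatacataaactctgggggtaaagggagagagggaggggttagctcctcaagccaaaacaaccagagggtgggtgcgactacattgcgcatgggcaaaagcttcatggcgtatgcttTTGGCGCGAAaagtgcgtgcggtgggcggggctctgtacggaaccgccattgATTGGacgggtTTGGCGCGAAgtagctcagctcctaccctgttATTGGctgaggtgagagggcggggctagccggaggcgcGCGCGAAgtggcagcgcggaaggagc
Mki67: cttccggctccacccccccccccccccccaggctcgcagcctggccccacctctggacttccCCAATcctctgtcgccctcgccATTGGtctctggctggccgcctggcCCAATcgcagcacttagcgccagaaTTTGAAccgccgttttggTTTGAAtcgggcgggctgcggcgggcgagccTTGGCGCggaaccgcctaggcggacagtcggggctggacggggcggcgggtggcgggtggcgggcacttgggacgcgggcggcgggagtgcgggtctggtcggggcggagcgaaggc
Top2a: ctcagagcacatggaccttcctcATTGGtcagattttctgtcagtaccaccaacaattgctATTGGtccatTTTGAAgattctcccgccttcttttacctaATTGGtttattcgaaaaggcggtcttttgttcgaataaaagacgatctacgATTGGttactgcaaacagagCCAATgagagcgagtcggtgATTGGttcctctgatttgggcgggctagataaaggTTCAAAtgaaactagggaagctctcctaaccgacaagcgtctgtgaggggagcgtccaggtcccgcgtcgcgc
Cdkn1a: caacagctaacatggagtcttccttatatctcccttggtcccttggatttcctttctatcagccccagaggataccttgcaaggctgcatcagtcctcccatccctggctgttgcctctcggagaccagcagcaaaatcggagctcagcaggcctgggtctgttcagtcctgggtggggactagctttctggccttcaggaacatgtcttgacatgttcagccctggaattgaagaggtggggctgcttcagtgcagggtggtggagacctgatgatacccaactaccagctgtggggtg
Pcna held a single CCAAT match and Mcm2 a CCAAT and a CHR match, without an E2F match under these letters. Mcm6 held 5 E2F and 2 CCAAT matches. Mki67 held 1 E2F, 2 CHR and 3 CCAAT matches and Top2a 2 CHR and 6 CCAAT matches. Cdkn1a, of which the first of 2 listed starts is shown, held none.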

How the data were processed

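Liver RNA was enriched for poly(A) tails and made into libraries that do not keep strand for BGI DNBSEQ sequencing, with RNA integrity numbers of 6.6 to 8.5, per the labels' protocols. The authors deposited a gene table with expected counts, estimates of which 10.9% were not whole numbers, and FPKM values, fragments scaled by length and depth. Per the submitters' processing notes the tools were HISAT and Bowtie2, without version or role, and the genome build was GRCm39. The sources used here name no counting program.

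Expected counts were rounded, filtered with filterByExpr (12789 of 17359 genes kept) and scaled by TMM (trimmed mean of M values). In edgeR 4.0.16 (R 4.3.3, robust glmQLFit) the 10 libraries shared a model with a mean per group, tested by the quasi-likelihood F test and adjusted by Benjamini-Hochberg over all genes tested, with calls at an adjusted p under 0.05. SEs were taken as the size of the log2 fold change divided by the root of F. CPM levels carry TMM factors. The steps were tested on simulated counts. Replicates within groups were compared, and none were duplicates.

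Members and lists were chosen with earlier results of these data known. By rule, values in every library are given for the 6 replication and 4 mitotic members with the smallest p at LC against AL and for all G1 regulators, and from each list of other genes the 3 with the smallest p and any called against its majority are named, except 1 gene that is not reported here; Mcm5 and Pold1 were added after their values were seen. Alternatives were DESeq2 1.42.0, limma 3.58.1 on log2 FPKM, other scalings and filters, the compared groups alone, a replicate block and leaving out each library. Intervals and floors cover counting error only.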

Additional observations from a re-analysis of the deposited data

Results flagged for a closer look

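In the 4 LC libraries the value of 1 library lay far from the other 3 for 3 members, judged by its gap as a share of the group's range. Tyms had 15.2 CPM in LC replicate 4, against 12.6 to 12.8 CPM in the other LC libraries. Ccnb1 had 0.0539 CPM in LC replicate 3, which is 1 expected count, and 0 in the others. Bub1 had 0.123 CPM in LC replicate 2, or 2 expected counts, against 0.0539 to 0.0628 CPM in the others. In all 41 sets of LC values, of members and of class sums, were examined in this way. For continuous values chance flags about 1 in 20 sets. That rate does not hold for Ccnb1 and Bub1, whose gaps each rest on a single read.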

How the results depend on the processing

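No member's fold change reversed in a called direction under the 19 alternatives. With library totals alone, which shifted the median log2 fold change of all genes from 0.05 to 0.36 at LC against AL and from −0.02 to −0.22 at RF against LC, 4 members were higher at LC (Mcm7, Mcm10, Pold1 and Tyms) and 7 lower, with 4 replication genes and 1 G1 regulator lower, and replication medians were −0.32 at LC against AL and 0.22 at RF against LC, where 1 member was lower. The shares of all genes called with library totals alone are not given here. With the compared groups alone 9 members were lower at LC, 6 of them replication genes and 1 mitotic, and 1 G1 regulator was higher at RF against LC. DESeq2 called 2 G1 regulators higher at RF against LC, and 99 genes at RF against AL, where no filter gave 13. On log2(FPKM + 1) 2 members were higher and 8 lower at LC (6 replication, 1 mitotic, 1 G1 regulator), with medians of −0.19, −0.16 and −0.25 for the 3 classes; at RF against LC 1 was lower, with medians of 0.15 for replication and 0.12 for G1 regulators. On log2(FPKM + 0.1) 2 were higher and 7 lower at LC (5 replication, 1 mitotic, 1 G1 regulator), with medians of −0.36 for replication and −0.31 for G1 regulators; at RF against LC 4 mitotic genes were higher and 1 member lower, with a replication median of 0.24. Either FPKM scale called 2 genes at RF against AL. These added constants compress the changes of scarce genes by construction; the other causes were not tested. Size factors by relative log expression, a mean of at least 10 counts and, as an alternative added after seeing the data, leaving out members whose exons overlap another gene moved no count of members by over 1.5 times.

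Leaving out each library in turn gave these ranges. At LC against AL 4 to 16 members were lower and 0 to 1 higher, with 3 to 11 replication genes, 0 to 4 mitotic genes and 1 to 3 G1 regulators lower; medians ran from −0.74 to −0.49, −1.09 to −0.71 and −0.89 to −0.31 in that order, with −0.31 reached without AL replicate 4. At RF against LC 4 to 11 members were higher and 0 to 1 lower, with 3 to 7 replication genes, 1 to 3 mitotic genes and 0 to 2 G1 regulators higher. At RF against AL no member was called. Over all genes 2110 to 4353 were called at LC against AL, 1 to 13 at RF against AL and 1435 to 3141 at RF against LC.

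The labels do not say whether replicate numbers pair samples, and not every pair correlated above 0.1, so the numbers were not treated as pairs: deviations of same-numbered libraries correlated at −0.05 to 0.07 between LC and AL, −0.04 to 0.01 between RF and AL and 0.05 to 0.25 between RF and LC. With the number as a replicate block 11 members were lower at LC against AL, 9 higher at RF against LC and none called at RF against AL.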
